A study of Mus musculus with 12 samples.

Results

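The surface of a platelet carries the receptors with which it holds on to a damaged vessel wall, and 9 of the genes for them were followed in PreMegEs, marrow cells that give rise to megakaryocytes and to erythroid cells. The 9 genes were Gp1ba, Gp1bb, Gp9 and Gp5, which encode the von Willebrand factor receptor GPIb-IX-V, Gp6 and Cd36, which encode collagen-binding receptors, Clec1b, which encodes CLEC-2, the podoplanin receptor, and Treml1 and Pear1, which encode the platelet receptors TLT-1 and PEAR1. They were taken by gene symbol from a table of 41128 genes, and all 9 were in it. RNA-Seq had been carried out on 12 libraries in 4 groups of 3, each library from cells pooled from 3 mice.

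All mice were C57BL/6 and 12 to 16 weeks old, and all PreMegEs came from adult bone marrow. WT PreMegEs were sorted whole from wild type mice. P2+ and P2- PreMegEs came from mice of the genotype Runx1 P1-GFP::P2-hCD4/+, in which 1 allele of Runx1 carries GFP at the distal promoter (P1) and a truncated human CD4 at the proximal promoter (P2), and were separated by hCD4. Both of these fractions therefore have 1 reporter allele, which WT cells lack, and the study speaks of Runx1 haploinsufficiency in cells that carry it. A difference from WT PreMegEs cannot be told apart from an effect of that allele. RUNX1C knockout (KO) PreMegEs came from mice without the isoform made from the distal promoter, in which the proximal promoter stays active. The RUNX1C null mice that the study describes are P1-GFP homozygotes, with GFP at the distal promoter of both alleles. KO cells of that genotype carry reporter alleles that WT cells lack. An effect of these alleles cannot be told apart from the loss of the isoform. The sources used here do not state whether the KO libraries were prepared and sequenced with the others, so the knockout and such a batch cannot be told apart.

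GPIb-IX-V captures von Willebrand factor under flow. GPIbα, from Gp1ba, holds the binding site, GPIbβ, from Gp1bb, is linked to it by disulphide bonds, GPIX, from Gp9, is needed for the complex to reach the surface, and GPV, from Gp5, is associated more loosely. GPVI, from Gp6, binds collagen and signals through the Fc receptor γ chain, and CLEC-2 signals through Syk in a similar way. CD36 is a scavenger receptor of many cell types, erythroid precursors and macrophages among them. TLT-1 is held in the α-granules of platelets and PEAR1 is phosphorylated when platelets touch each other. Glycoprotein genes of this kind are textbook targets of GATA1, FLI1 and other Ets factors in megakaryocytes, and RUNX1 is required for megakaryocyte maturation.

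The 250 bases before the start of the 4 genes of GPIb-IX-V are printed here because these genes belong to 1 complex and the same factors are described for them. They are from RefSeq on GRCm38.p6, on the strand of the gene and read 5′ to 3′, at chr11:70638872-70639121 on the plus strand for Gp1ba, chr16:18622404-18622653 on the minus strand for Gp1bb, chr6:87777820-87778069 on the plus strand for Gp9 and chr16:30310782-30311031 on the minus strand for Gp5. Capitals mark matches on either strand to the GATA letters (AGATAA, the same with T first, which is TGATAA, and both with G last, which gives AGATAG as well as TGATAG), the Ets letters (AGGAAG as well as CGGAAG) and the Runx letters (TGTGGT as well as TGCGGT).
Gp1ba: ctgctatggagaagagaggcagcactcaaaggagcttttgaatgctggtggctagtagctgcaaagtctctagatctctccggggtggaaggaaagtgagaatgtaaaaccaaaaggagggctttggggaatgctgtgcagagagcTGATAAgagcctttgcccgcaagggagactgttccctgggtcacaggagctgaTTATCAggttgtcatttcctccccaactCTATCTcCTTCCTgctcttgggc
Gp1bb: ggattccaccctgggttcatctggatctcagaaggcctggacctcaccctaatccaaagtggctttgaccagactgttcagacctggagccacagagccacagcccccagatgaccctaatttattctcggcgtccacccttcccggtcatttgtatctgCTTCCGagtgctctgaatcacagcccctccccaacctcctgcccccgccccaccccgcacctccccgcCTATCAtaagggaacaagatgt
Gp9: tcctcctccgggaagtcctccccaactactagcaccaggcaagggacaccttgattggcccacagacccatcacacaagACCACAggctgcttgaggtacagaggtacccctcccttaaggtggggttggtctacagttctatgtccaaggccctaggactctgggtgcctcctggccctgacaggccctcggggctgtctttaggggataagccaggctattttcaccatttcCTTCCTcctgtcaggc
Gp5: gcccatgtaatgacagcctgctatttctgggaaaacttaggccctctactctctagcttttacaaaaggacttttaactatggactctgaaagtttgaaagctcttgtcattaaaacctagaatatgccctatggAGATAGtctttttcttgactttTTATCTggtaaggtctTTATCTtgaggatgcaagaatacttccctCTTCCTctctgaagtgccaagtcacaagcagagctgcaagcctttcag

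A GATA match stood 104, 51 and 23 bases before the start of Gp1ba, 22 bases before that of Gp1bb and 115, 93 and 77 bases before that of Gp5. The Ets letters began 16 bases before the start in both Gp1ba and Gp9, 48 bases before it in Gp5 and 90 bases before it in Gp1bb. The Runx letters were found in the window of Gp9, 171 bases before the start, and in none of the other 8. Gp6 and Clec1b each had 1 GATA match, Pear1 had 2 Ets matches, and Treml1 and Cd36 had no match of any kind. Of 32851 RefSeq windows of the same length, 26.5% held a GATA match, 39.2% an Ets match, 18.6% a Runx match and 9.21% both a GATA and an Ets match, as 3 of the 9 receptor genes did. Such matches describe letters and not binding.

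The libraries held between 10726098 and 14445026 counts (median 12284879). A limit of 3 counts, taken as about what a count of 0 leaves possible by counting error, came to 0.208 to 0.280 CPM (counts relative to the TMM-scaled library size). Kit, which the gate requires, had between 733 and 1156 CPM and Slamf1 (CD150) between 34.1 and 65.5 CPM. Itga2b (CD41), against which the cells were gated, still had RNA in every library, from 38.7 CPM in a P2- library to 320.4 CPM in a P2+ library. Runx1 had 631 ± 24.2 CPM in P2+, 369 ± 15.6 in WT, 360 ± 20.4 in KO and 211 ± 7.34 in P2- PreMegEs (SD, n = 3). Counts per gene do not separate its isoforms, so they do not check the knockout. Summed over 13 megakaryocyte and platelet markers, the libraries reached 1980 to 2720 CPM in P2+, 1197 to 1378 in WT, 702 to 850 in KO and 302 to 427 in P2- PreMegEs. Summed over 13 erythroid markers, they reached 863 to 1078 CPM in P2+, 2004 to 2253 in WT, 3071 to 3447 in KO and 3281 to 3837 in P2- PreMegEs. Summed over 8 stem cell markers, they reached 547 to 749 CPM in P2+, 298 to 347 in WT, 209 to 259 in KO and 174 to 199.5 in P2- PreMegEs. Summed over 8 neutrophil markers, they reached 78.2 to 191 CPM in P2+, 63.1 to 152 in WT, 14.1 to 47.1 in KO and 17.1 to 96.7 in P2- PreMegEs, so that KO and WT did not overlap, and Ly6g was at or under 3 counts in WT, KO and P2- cells. Of 3 of them tested in KO and WT cells, Mpo (-1.58) and Elane (-2.34, both log2) were lower by edgeR's quasi-likelihood test, and DESeq2 called 0. Summed over 12 monocyte and macrophage markers, they reached 11.7 to 25.4 CPM in WT and 6.10 to 9.58 in KO PreMegEs, which did not overlap, and 1 of 4 tested, Ly6c2 (-1.43, log2), was lower in KO cells by edgeR. In these bulk samples, more cells with a transcript and more transcript per cell cannot be told apart, and the part of these marker levels in the results was not tested. Fos, an immediate early gene, had 1327 CPM in P2- replicate 2 and 903 CPM in P2+ replicate 2, against 0.318 to 18.5 CPM in their other libraries. It also stood apart in WT replicate 3, at 166 CPM against 0.832 and 22.2, and in KO replicate 3, at 87.4 CPM against 1.22 and 6.84.

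To ask how the receptor genes differ between the fractions that the P2 reporter separates, P2+ was compared with P2- PreMegEs. All 4 genes of GPIb-IX-V were higher in P2+ cells, by between 2.24-fold for Gp5 and 15.3-fold for Gp1bb, and so were Treml1 and Pear1. Of the 9 genes, 7 reached 1 CPM in 3 or more of the 6 libraries and were tested, and Cd36 did so through the P2- libraries, where it is high, so nothing is read from its call, from its share beside all genes or from its place in the median. Among those 7, 6 were higher and 1 was lower at an adjusted p under 0.05 (edgeR's quasi-likelihood test, Benjamini-Hochberg adjustment over 12836 genes), all of them by at least 2-fold. Of all genes tested, 20.1% were higher and 17.0% lower by that test, and 9.54% and 3.13% at 2-fold or more. The median log2 fold change was 1.96 over the 7 genes and -0.02 over all genes tested.

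Gp1bb, the gene of the β subunit, was low in P2- PreMegEs. It had 31.2, 41.4 and 63.3 CPM in P2+ replicates 1, 2 and 3 and 3.42, 1.35 and 3.95 CPM in the P2- replicates, from 372, 599 and 830 counts against 43, 14 and 56. The lowest P2+ library was thus far above the highest P2- library, and the log2 fold change was 3.94 ± 0.37 (SE, adjusted p = 7.32e-05, edgeR). The level of Gp1bb itself is uncertain, because 1902 of its 2087 exonic bases (91.1%) lie in exons of Sept5 on the same strand, and how reads on both were assigned is not stated. Sept5, a septin gene, held only 114 counts over the 12 libraries, 45 of them in P2+ and 7 in P2- PreMegEs.

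Gp9, at 57.6, 57.4 and 87.2 CPM in P2+ against 12.5, 14.0 and 18.8 CPM in P2- PreMegEs, rose 4.48-fold (log2 2.17 ± 0.21, SE, adjusted p = 8.82e-05, edgeR). Its P2+ replicate 3 stood above the others, and no P2+ library came near the P2- range. Gp1ba had 54.7, 69.1 and 74.7 CPM in P2+ and 27.9, 26.9 and 29.2 CPM in P2- PreMegEs, a rise of 1.25 ± 0.13 on the log2 scale (SE, adjusted p = 1.19e-04). Gp5, with the highest CPM of the 9, had 291, 294 and 366 CPM in P2+ and 144, 135 and 150 CPM in P2- PreMegEs, a rise of 1.16 ± 0.10 (SE, adjusted p = 5.15e-05, edgeR). P2- cells thus kept a clear level of Gp5 and Gp1ba, whereas that of Gp1bb was low. Every P2+ library was higher than every P2- library for each of the 4 genes, a separation that 24.8% of all tested genes also had.

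**Figure D1:**
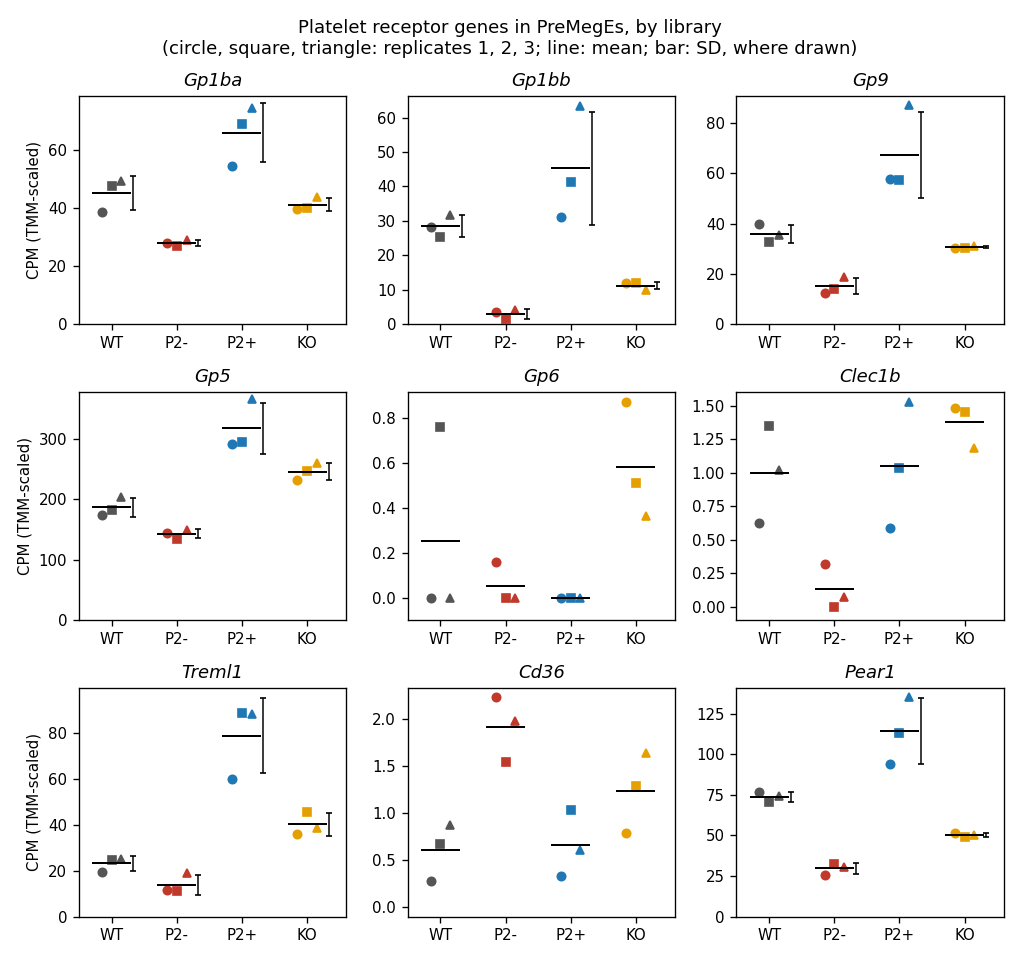
Level of each of the 9 receptor genes in each library, as CPM on TMM-scaled library sizes on linear axes that differ between panels. Circles, squares and triangles are replicates 1, 2 and 3, the line is the mean of 3 libraries and the bar its SD, left out for Gp6, Clec1b and Cd36. P2- libraries are the lowest and P2+ libraries the highest for Gp1ba, Gp1bb, Gp9, Gp5, Treml1 and Pear1, apart from an overlap of P2+ with WT libraries for Gp1bb, whereas Gp6, Clec1b and Cd36 stay at or under 2.23 CPM.

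Treml1 and Pear1 shared this direction. Treml1, the gene of TLT-1, had 59.7, 88.3 and 87.9 CPM in P2+ against 11.5, 10.95 and 18.8 CPM in P2- PreMegEs, a 5.75-fold rise (log2 2.52 ± 0.23, SE, adjusted p = 6.69e-05, edgeR). Pear1, the gene of a receptor at contacts between platelets, had 94.2, 113 and 135 CPM against 25.9, 32.3 and 30.7 CPM, a 3.89-fold rise (log2 1.96 ± 0.15, SE, adjusted p = 1.97e-05). Neither gene's P2+ libraries overlapped its P2- libraries. A short overlap of 321 exonic bases (4.73%) with Lrrc71 on the same strand, which held 26 counts in all, touches the level of Pear1.

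The collagen and podoplanin receptors themselves were scarce. Gp6 had 0 counts in all 3 P2+ libraries and 2, 0 and 0 counts in the P2- libraries. That is at or under the limit of 3 counts in both fractions, so no difference was detectable at this depth. Clec1b had 7, 15 and 20 counts in P2+ and 4, 0 and 1 counts in P2- PreMegEs. Of its exonic bases, 184 (3.61%) lie in Clec9a on the same strand, a gene with 85 counts in all. Clec1b did not pass the filter, and without any filter its log2 fold change was 2.88 ± 0.99 (SE, adjusted p = 0.0451, edgeR). Cd36 had 4, 15 and 8 counts in P2+ and 28, 16 and 28 counts in P2- PreMegEs, or 0.335, 1.04 and 0.610 against 2.23, 1.54 and 1.98 CPM. The libraries did not overlap, as for 25.1% of all tested genes in that direction, and the log2 difference was -1.49 ± 0.48 (SE, adjusted p = 0.0378, edgeR). Since Cd36 was tested through its P2- libraries, these values are a description, and the call did not hold without the filter on low counts (adjusted p = 0.0635, edgeR), nor when P2- replicate 1 or 3 or P2+ replicate 1 or 3 was left out (adjusted p = 0.0861 to 0.112). Among 12 monocyte and macrophage markers, the summed level was 13.4 to 21.0 CPM in P2+ and 4.06 to 12.7 CPM in P2- PreMegEs, and Adgre1 and Marco were at or under 3 counts in each fraction. Of 4 tested, 2 were called higher in P2+ cells by edgeR, Csf1r and Ly6c2, where 20.1% of all genes tested were higher. Csf1r reached 1 CPM in no P2- library and Ly6c2 in 1, so nothing is read from these calls.

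**Figure D2:**
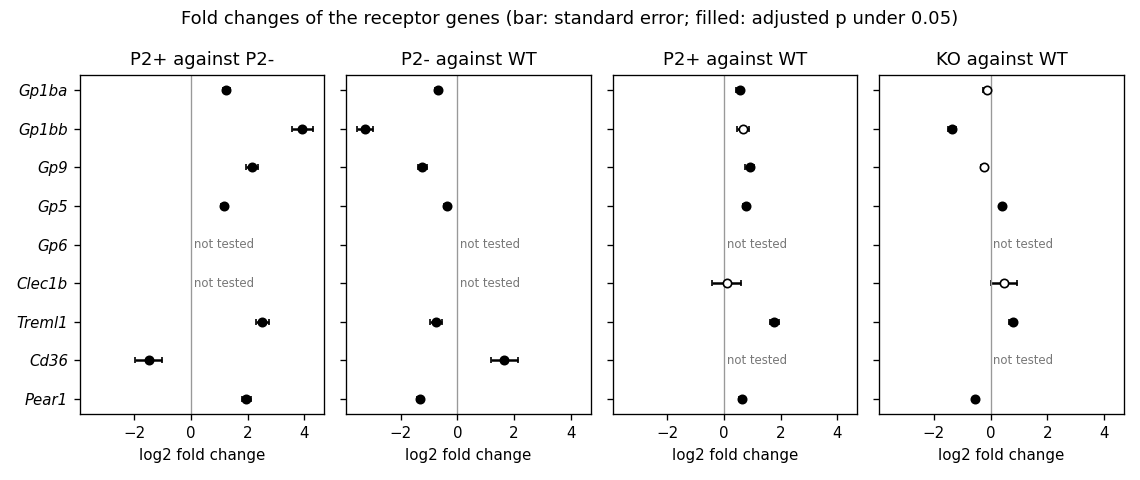
Log2 fold change of each receptor gene in 4 comparisons, as the first group relative to the second, with the standard error as a bar. Filled points had an adjusted p under 0.05 by edgeR's quasi-likelihood test, and "not tested" marks a gene that did not pass the filter on low counts. Gp1bb has the largest change in P2+ against P2-, in P2- against WT and in KO against WT among the genes tested, and in KO against WT the points of Gp5 and Treml1 lie on the other side of 0 from those of Gp1bb and Pear1.

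The 2 fractions were then set against whole WT PreMegEs, with which both share the same WT libraries. In P2- cells the receptor genes were lower than in WT cells. Of the 7 genes tested, 6 were lower and 1, Cd36, was higher at an adjusted p under 0.05, where 9.60% of the 12767 genes tested were lower and 6.85% higher (edgeR's quasi-likelihood test). At 2-fold or more, 3 were lower, against 4.10% of all genes tested. Cd36 was also past 2-fold (0.572% of all genes tested were, in that direction), but it entered the test through the P2- libraries, where it is high, so nothing is read from that share. Gp1bb, at 28.3, 25.3 and 31.7 CPM in WT PreMegEs, fell by 3.25 ± 0.28 on the log2 scale (SE, adjusted p = 6.44e-05, edgeR), which is 9.53-fold. Pear1, at 76.5, 70.3 and 74.0 CPM in WT, fell by 1.31 ± 0.10 (SE, adjusted p = 3.38e-05), and Gp9, at 39.7, 32.5 and 35.5 CPM in WT, fell by 1.24 ± 0.16 (SE, adjusted p = 6.88e-04). For these 3 genes even the lowest WT library was well above every P2- library.

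The other changes in P2- cells were smaller. Gp1ba, at 38.6, 47.9 and 49.5 CPM in WT PreMegEs, fell by 0.69 ± 0.12 on the log2 scale (SE, adjusted p = 0.00339, edgeR), and Gp5, at 174, 183 and 204 CPM in WT, fell by 0.38 ± 0.08 (SE, adjusted p = 0.012). Treml1, at 19.3, 24.7 and 25.2 CPM in WT, was lower by a log2 difference that came close to the threshold (-0.74 ± 0.21, SE, adjusted p = 0.0391), and the call was lost when any library but P2- replicate 3 was left out (adjusted p = 0.0517 to 0.126). For Cd36, with 4, 8 and 12 counts in WT, the log2 difference of 1.66 ± 0.49 (SE, adjusted p = 0.0425) rested on the P2- libraries passing the filter and its call was lost without the filter (0.0544), with the replicate number as a block (0.0878) and without any 1 of the WT libraries (0.055 to 0.144). The 6 lower genes had no overlap between groups, as had 18.1% of all tested genes in that direction, nor had Cd36 in the other, as had 16.9%. Clec1b was not tested at 9, 16 and 14 counts in WT against 4, 0 and 1, which do not overlap.

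In P2+ cells, 5 of the 7 genes tested were higher than in WT cells and none was lower at an adjusted p under 0.05 (edgeR's quasi-likelihood test), where 9.45% of the 12941 genes tested were higher and 7.07% lower. All 7 had a positive log2 difference, and DESeq2, exactTest and the other alternatives called none lower either. Treml1 alone passed 2-fold, as did 2.16% of all genes tested. It rose by 1.78 ± 0.16 on the log2 scale, or 3.42-fold (SE, adjusted p = 7.43e-05), and the lowest P2+ library, at 59.7 CPM, stood above the highest WT library, at 25.2 CPM. Gp9 rose by 0.91 ± 0.16, Gp5 by 0.77 ± 0.10, Pear1 by 0.64 ± 0.12 and Gp1ba by 0.55 ± 0.13 (SE, adjusted p = 0.0032, 8.13e-04, 0.00449 and 0.018). The 5 genes that rose had no overlap between groups, which held for 18.0% of all tested genes. The call on Gp1ba was lost without WT replicate 1 (adjusted p = 0.077) or P2+ replicate 3 (0.0656). Gp1bb had a log2 difference of 0.68 ± 0.22 (SE, adjusted p = 0.0571), with the lowest P2+ library, 31.2 CPM, just under the highest WT library, 31.7 CPM. DESeq2 (adjusted p = 0.00649), edgeR's exactTest (0.0269), the fit without the filter (0.00486), the replicate block (0.0317) and leaving out P2+ replicate 1 (0.00989) or 2 (0.0354) put this difference past the threshold. Clec1b, with 1.05 CPM in P2+ and 0.998 CPM in WT PreMegEs on average, had a log2 difference of 0.10 ± 0.52 (SE, adjusted p = 0.925). Gp6 was at 0 in P2+ and at 0, 9 and 0 counts in WT PreMegEs, so the signal in WT came from replicate 2 only.

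RUNX1C KO PreMegEs were compared with WT PreMegEs to see which receptor genes differ without the distal isoform. The receptor genes did not move together. Gp1bb and Pear1 were lower in KO cells, Gp5 and Treml1 were higher, and Gp1ba, Gp9 and Clec1b did not pass the test. Of the 7 genes tested, 2 were higher and 2 lower at an adjusted p under 0.05, where 6.18% of the 12784 genes tested were higher and 8.76% lower (edgeR's quasi-likelihood test). At 2-fold or more, the call was on Gp1bb, which was lower, as were 2.67% of all genes tested. Apart from that requirement, none of the calls on the 7 genes was lost or gained under the alternatives run, each left-out library included.

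Gp1bb had 11.8, 11.8 and 10.0 CPM in KO PreMegEs, from 135, 138 and 110 counts, against 25.3 to 31.7 CPM in WT PreMegEs. It fell by 1.35 ± 0.14 on the log2 scale, or 2.55-fold (SE, adjusted p = 2.66e-06, edgeR). Sept5, in whose exons it lies, held 8 counts in KO and 54 in WT PreMegEs, and its log2 fold change was -2.47 ± 0.63 (SE, adjusted p = 0.0127, edgeR). Sept5 entered the test through the WT libraries, where it is high, so nothing is read from its call. Pear1, at 51.4, 49.3 and 50.4 CPM in KO, was below every WT library and fell by 0.56 ± 0.08 (SE, adjusted p = 1.03e-04).

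The genes that rose in KO cells were Treml1 and Gp5. Treml1, at 36.1, 45.6 and 38.5 CPM in KO against 19.3 to 25.2 CPM in WT PreMegEs, rose by 0.79 ± 0.13 on the log2 scale, or 1.73-fold (SE, adjusted p = 3.19e-04, edgeR). Gp5, at 231, 247 and 260 CPM in KO against 174 to 204 CPM in WT, rose by 0.39 ± 0.07, or 1.31-fold (SE, adjusted p = 9.61e-04). For both genes, every KO library was above every WT library, as for 15.6% of all tested genes. The change in Gp5 was thus opposite to that in Gp1bb, whose product is in the same complex, and the summed megakaryocyte and platelet markers were lower in KO than in WT libraries.

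For Gp1ba, the KO libraries had 39.8, 40.1 and 44.0 CPM and overlapped those of WT, with a log2 difference of -0.14 ± 0.11 (SE, adjusted p = 0.444, edgeR). Gp9 had 30.4, 30.5 and 30.9 CPM in KO, each below the lowest WT library at 32.5 CPM, and a log2 difference of -0.24 ± 0.11 (SE, adjusted p = 0.152). Being lower without overlap was common, at 16.1% of all tested genes. Clec1b, with 17, 17 and 13 counts in KO against 9, 16 and 14 in WT, overlapped, and its difference was 0.47 ± 0.47 (SE, adjusted p = 0.578).

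Gp6 was seen in every KO library, at 10, 6 and 4 counts, and in no P2+ library. It did not pass the filter in any comparison. Against the limit of 3 counts over the P2+ group, its level in KO cells was at least 7.63-fold higher, and the fit without a filter gave an adjusted p of 0.0149 (edgeR). Against WT, where 1 library had 9 counts and the others 0, the fit without a filter gave an adjusted p of 0.562. Cd36 had 9, 15 and 18 counts in KO PreMegEs, which overlapped WT, and it was not tested there.

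Set beside the 2 reporter fractions, the mean level in KO cells lay between them for Gp1ba, Gp1bb, Gp9, Gp5, Treml1, Pear1 and Cd36, and above both for Clec1b and Gp6. Relative to P2- cells, 6 of 8 genes tested were higher in KO cells at an adjusted p under 0.05, where 1.33% of the 12588 genes tested were higher (edgeR's quasi-likelihood test). The 6 were Gp1bb, with a log2 fold change of 1.91, Treml1 with 1.53, Gp9 with 1.01, Gp5 with 0.78, Pear1 with 0.76 and Gp1ba with 0.55 (adjusted p between 9.81e-04 and 0.0212). At 2-fold or more, 3 were higher, against 0.437% of all genes tested. Without KO replicate 1, 2 genes, Gp5 and Treml1, were past the threshold, and without KO replicate 2 or 3 there were 3, Gp5, Treml1 and Pear1. The call on Gp1ba was also lost without P2- replicate 1 (0.0654). With the replicate number as a block, 5 genes were called and Gp1ba had an adjusted p of 0.0624. Clec1b passed the filter through the KO libraries, where it is high, so its log2 difference of 3.26 ± 0.73 (SE, adjusted p = 0.0603) is a description. It passed the threshold without the filter (0.0422), with DESeq2 (0.0183), with exactTest (2.18e-05) and in 1 fit of all 12 libraries (0.031), and nothing is read from these calls. Relative to P2+ cells, the same 6 genes were lower in KO cells, where 20.3% of the 12807 genes tested were lower, and 3 were lower at 2-fold or more, as were 8.32% of all genes. The log2 fold changes ran from -0.38 for Gp5 (adjusted p = 0.00916, edgeR) to -2.03 for Gp1bb (adjusted p = 7.09e-05), and Cd36 and Clec1b did not pass the test.

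The order of the mean levels was P2+, WT, KO and P2- for Gp1ba, Gp1bb, Gp9 and Pear1, and P2+, KO, WT and P2- for Gp5 and Treml1. Each neighbouring pair in these orders passed the test, except WT and KO for Gp1ba and Gp9 and P2+ and WT for Gp1bb. Clec1b was highest in KO cells at 1.37 ± 0.17 CPM, and the neighbours KO, P2+ and WT overlapped. Cd36 was highest in P2- cells at 1.91 ± 0.35 CPM, then in KO cells at 1.24 ± 0.43 CPM, in P2+ cells at 0.660 ± 0.353 CPM and in WT cells at 0.609 ± 0.304 CPM (SD, n = 3), and each neighbouring pair overlapped.

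On a scale of CPM on which the mean of P2- libraries is 0% and that of P2+ libraries 100%, WT libraries lay at 14.4 ± 5.1% for Treml1, 25.1 ± 8.8% for Gp5, 39.7 ± 6.9% for Gp9, 45.4 ± 15.4% for Gp1ba, 52.0 ± 3.7% for Pear1 and 60.2 ± 7.5% for Gp1bb (SD, n = 3). The genes thus differed in where whole PreMegEs fell between the fractions. KO libraries lay at 40.6 ± 7.6% for Treml1 and 59.0 ± 8.3% for Gp5, above all WT libraries. For Gp1bb (19.6 ± 2.4%) and Pear1 (24.5 ± 1.3%) they lay below all WT libraries, whereas for Gp1ba (34.8 ± 6.1%) the groups overlapped. For Gp9 the KO libraries, at 29.6 ± 0.6%, were just below the lowest WT library, at 33.3%.

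**Figure D3:**
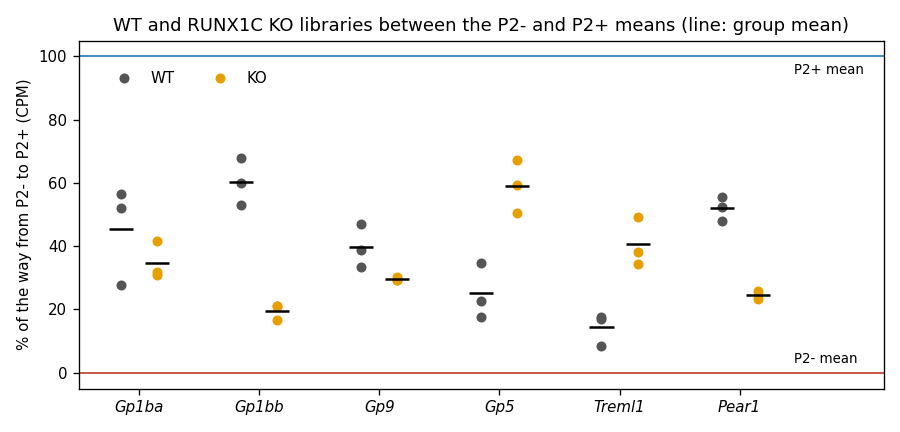
Position of each WT and KO library between the mean of the P2- libraries (0%) and that of the P2+ libraries (100%), in CPM, for the 6 receptor genes with enough counts. Lines are means of 3 libraries. KO points lie above WT points for Gp5 and Treml1 and below them for Gp1bb, Gp9 and Pear1, and overlap them for Gp1ba.

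Within GPIb-IX-V, the genes were also compared per length, as RPKM over the exonic length. Gp5 had the highest level of the 4 in every group, with mean RPKM of 85.0 in WT, 65.2 in P2-, 144 in P2+ and 112 in KO PreMegEs. It made up 54.4 ± 2.05% of the summed RPKM of the 4 genes in WT and 54.4 ± 2.71% in P2+ cells, against 69.4 ± 2.49% in P2- and 66.9 ± 1.05% in KO cells (SD, n = 3). The share of Gp1bb went the other way, at 8.71 ± 0.54% in WT, 7.97 ± 1.49% in P2+, 3.22 ± 0.41% in KO and 1.46 ± 0.63% in P2- cells, and that of Gp9 was 26.2 ± 3.04%, 28.4 ± 2.0%, 20.8 ± 0.71% and 18.2 ± 2.75% in the same order. The share of Gp1ba did not follow that grouping, at 10.7 ± 1.23% in WT, 9.18 ± 1.07% in P2+, 9.09 ± 0.23% in KO and 10.98 ± 0.40% in P2- cells, with WT libraries overlapping those of P2+ and P2- cells and all above the KO libraries. Nor did the ratio of Gp5 to Gp1ba per length, which was 5.13 ± 0.42 in WT, 5.97 ± 0.67 in P2+, 6.32 ± 0.09 in P2- and 7.37 ± 0.21 in KO cells (SD, n = 3), the P2+ libraries overlapping both WT and P2- libraries. These are shares of RNA, and the differences in them were not tested. The shares, and the place of Gp5 as the highest of the 4, also depend on how reads on both Gp1bb and Sept5 were assigned. The ratio of Gp1bb to Gp1ba, both per length, was between 0.689 and 0.954 in WT and between 0.742 and 1.10 in P2+ libraries, but between 0.297 and 0.386 in KO and between 0.0651 and 0.176 in P2- libraries. No WT or P2+ library overlapped a KO or P2- library in this ratio, which does not depend on library size but does depend on how reads shared with Sept5 were assigned.

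**Figure D4:**
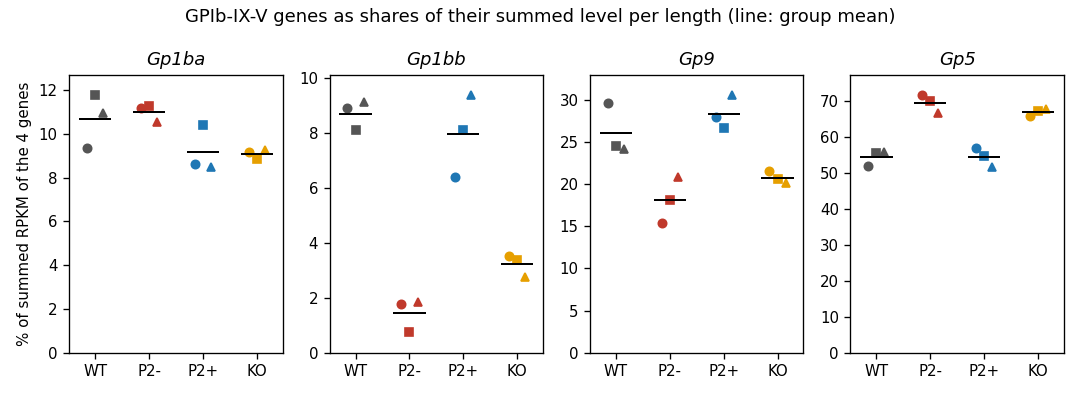
Each of the 4 genes of GPIb-IX-V as a percent of their summed RPKM, by library, on axes that start at 0. Circles, squares and triangles are replicates 1, 2 and 3 and lines are means. Gp5 takes between 65.8% and 71.6% in KO and P2- libraries and between 51.5% and 56.9% in WT and P2+ libraries, and Gp1bb stays at or under 3.53% in KO and P2- libraries. The shares depend on how reads on both Gp1bb and Sept5 were assigned.

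The other genes of these pathways were counted over lists that had been written with earlier results of these data known. Of 26 other platelet surface receptors, 24 were tested in P2+ and P2- PreMegEs, and 20 passed the test, each higher in P2+ cells (edgeR's quasi-likelihood test, adjusted p under 0.05). Among the 20, Jam3 reached 1 CPM in 1 P2- library alone. Of all genes tested, 20.1% were higher by this test. None of the 24 was lower by it, at an unadjusted p under 0.05, or by DESeq2 or exactTest. The median log2 fold change of the 24 was 1.64. Itgb3, the integrin β3 subunit, had 182 CPM in P2+ and 15.1 CPM in P2- cells on average (log2 3.59 ± 0.33, SE, adjusted p = 6.46e-05). The others named for size were F2rl2, a thrombin receptor (3.36), Selp, P-selectin (3.27), and Tbxa2r, the thromboxane receptor (3.17). In KO and WT PreMegEs, 11 of 24 were lower, Selp (-1.63), Tbxa2r (-1.30), Itgb3 (-0.91) and F2rl2 (-0.84, all log2) by the most, and 2 were higher, Jam3 (1.80) and Ptgir (1.51), at 2.25 and 2.71 CPM in KO cells, where 8.76% of all genes tested were lower and 6.18% higher. Jam3 and Ptgir reached 1 CPM in 3 KO libraries and in 1 WT library, so nothing is read from these 2 calls. The median was -0.32. In P2+ cells 15 of 24 were higher than in WT cells (9.45% of all genes tested), and in P2- cells 16 of 22 were lower (9.60%). Jam3, among the 15, reached 1 CPM in 1 WT library alone, so nothing is read from its call. In KO cells 6 of 24 were higher than in P2- cells (1.33% of all genes tested), and 19 were lower (20.3%) and 1 higher (16.7%) than in P2+ cells. That 1 was Mpig6b, which reached 1 CPM in 1 P2+ library alone, so nothing is read from its call.

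**Figure D5:**
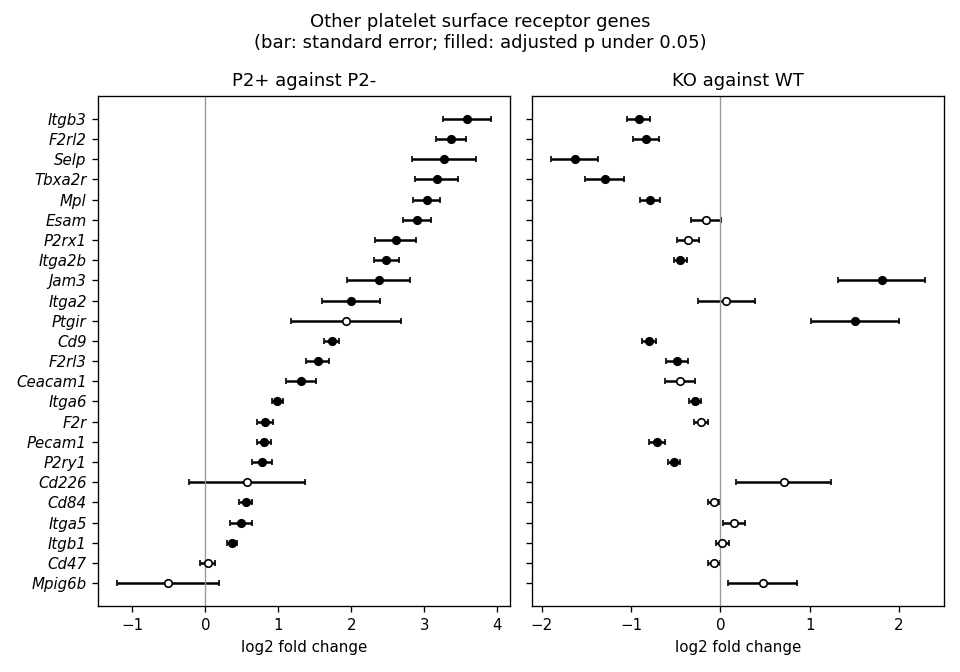
Log2 fold change with standard error of the 24 other platelet surface receptor genes tested in P2+ against P2- PreMegEs, and of the same genes in KO against WT PreMegEs, ordered by the first. Filled points had an adjusted p under 0.05 by edgeR's quasi-likelihood test. In P2+ against P2-, 20 points are filled, each to the right of 0, and in KO against WT, 11 filled points lie to the left of 0 and 2, Jam3 and Ptgir, to the right. Nothing is read from those 2, which reached 1 CPM in 1 WT library alone.

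Of 26 genes of the signalling path below GPVI and CLEC-2, 25 were tested in P2+ and P2- PreMegEs, where 16 were higher and 1, the phosphatase gene Ptpn6, was lower (-0.34), where 20.1% of all genes tested were higher and 17.0% lower. The median over the list was 0.52. The kinase gene Src (2.29), the adaptor gene Grap2 (2.14), the exchange factor gene Vav3 (2.04) and Plcg2 (1.81), the phospholipase that both receptors use, had the largest rises. Fcer1g, the gene of the γ chain that GPVI needs, had 6.47 CPM in P2+, 3.16 CPM in P2-, 8.06 CPM in WT and 4.52 CPM in KO PreMegEs on average. It was 1.05 ± 0.27 higher in P2+ than in P2- cells (log2, SE, adjusted p = 0.0144, edgeR) and fell by 0.84 ± 0.23 from WT to KO cells (SE, adjusted p = 0.0204). In KO and WT PreMegEs 7 of 25 were lower, led by Grap2 (-1.38), Src (-0.90), Fcer1g and Fyn (-0.82), with a median of -0.03, where 8.76% of all genes tested were lower. Between KO and P2- PreMegEs, edgeR's quasi-likelihood test called 0 of the 25, with 9 higher and 1 lower in KO cells at an unadjusted p under 0.05, while DESeq2 called 4 and exactTest 1, all higher. Of all genes tested, 8.58% were higher and 6.95% lower at that unadjusted p, and DESeq2 called 2.83% higher and exactTest 2.31%. Relative to WT cells, 8 were higher in P2+ cells (9.45% of all genes tested) and 8 lower in P2- cells (9.60%). Relative to P2+ cells, 12 were lower in KO cells (20.3% of all genes tested) and 4 higher, which is near the 16.7% of all genes tested.

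Of 11 genes for ligands, Vwf (2.35) and Thbs1 (2.24) were higher in P2+ than in P2- cells among 4 tested, where 20.1% of all genes tested were higher, and Pdpn, the podoplanin gene, was at or under 3 counts in each group, as were Col3a1, Vtn and the 3 fibrinogen genes. In KO and WT cells, Col1a2 (-1.80) and Vwf (-0.92) were lower of 3 tested, where 8.76% of all genes tested were lower. Col1a2 was also lower than in WT cells in P2- (-2.06) and P2+ cells (-2.68), so its difference was not particular to KO cells. Of 6 intracellular partners of GPIb-IX-V, 5 were tested in P2+ and P2- PreMegEs. Actn1, an actin crosslinker, was higher in P2+ cells (1.90) and Flna, the filamin that ties GPIbα to actin, was lower (-0.42), and 1 of 5 in each direction is near the 20.1% and 17.0% of all genes tested. In KO and WT PreMegEs, 4 of the 6 were lower, namely Sept5 (-2.47), Actn1 (-1.69), Flna (-0.35) and Ywhaz, a 14-3-3 gene (-0.17), where 8.76% of all genes tested were lower. Sept5 shares exonic bases with Gp1bb and entered the test through the WT libraries, where it is high, so nothing is read from its call. Of 12 regulators, 6 were higher and 2 lower in P2+ cells relative to P2- cells, where 20.1% and 17.0% of all genes tested were, so that the share of lower genes was near that of all genes. Ets1 (2.26), Fli1 (1.93), Meis1 (1.81) and Runx1 (1.60) were among the former, and Gfi1b (-0.76) and Gata1 (-0.54) were the latter. The 2 fractions were sorted by a reporter at a Runx1 promoter, so nothing is read from the call on Runx1 or its place among the 6. In KO and WT cells, Ets1 (-1.27), Meis1 (-0.65), Fli1 (-0.65) and Gata2 (-0.20) were lower and Gfi1b (0.65) and Gata1 (0.27) higher, where 8.76% of all genes tested were lower and 6.18% higher. The KO and P2- comparison called 4 of the 12, Runx1 (0.77), Fli1 (0.65), Erg (0.58) and Meis1 (0.48), all higher in KO cells, as were 1.33% of all genes tested. All are log2 fold changes past an adjusted p of 0.05 (edgeR's quasi-likelihood test). Because P2- cells were sorted by that reporter, nothing is read from the call on Runx1 in KO and P2- cells either.

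The receptor genes were also compared with the 13272 genes that reached 1 CPM in 3 or more of all 12 libraries, by Pearson's r of log2 CPM with the mean profile of the 8 receptor genes that passed this filter. Gp1ba (0.975), Gp5 (0.949), Treml1 (0.948), Gp9 (0.941), Pear1 (0.905) and Gp1bb (0.903) followed the profile they are part of, Clec1b less so (0.811), and Cd36 ran against it (-0.498). The 5 other genes most like it were Slc14a1 and Bcl2l1 (0.962 each), Gucy1b3 (0.961), Ggn (0.957) and Prkcq (0.956). The points are 12 libraries in 4 groups that share their sorting and depth, so these values describe the group pattern. Gucy1b3, a subunit gene of the nitric oxide receptor, had 22.7 CPM in P2+, 9.16 in WT, 7.14 in KO and 1.22 in P2- cells, and Prkcq, the gene of protein kinase C θ, spanned only 33.8 to 49.2 CPM.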

How the data were processed

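The authors aligned strand-specific, paired-end poly(A) reads to GRCm38 with Bowtie2 and counted them per gene with featureCounts. The deposited values are these whole-number counts per gene and library, without normalization. Whether counting used the strand, and how shared or multi-mapping reads were treated, is not given in the sources used here. No file of fold changes or p-values was used.

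Groups and replicate numbers came from the labels. Each pair of groups was compared with edgeR 4.0.16 in R 4.3.3 (glmQLFit and glmQLFTest, group alone, 6 libraries), on genes that reached 1 CPM in 3 or more libraries, with TMM scaling and Benjamini-Hochberg adjustment over all genes tested. A call means an adjusted p under 0.05. The fit was tested on 1 simulated data set per comparison, with 200 genes changed. False calls took a larger share of all calls than the nominal rate in each, though only slightly in KO and P2+. Fewer genes were changed than were called in most real comparisons, so the rate in these data was not measured. Calls close to the threshold are taken as less certain than their adjusted p. The authors' own test, edgeR's exactTest, was run as an alternative, with DESeq2 1.42.0, other scaling, no filter, 1 fit of all 12 libraries, the replicate block and left-out libraries. The SE is the log2 fold change divided by the root of F. Positions and exonic lengths came from GENCODE vM21 (40254 of 41128 genes), and promoters from RefSeq (all 9 genes). Each library pools 3 mice, and the study describes the 3 libraries of a group as biological replicates. In P2+ and P2-, same-numbered libraries deviated together from their group means (correlations across genes of 0.386, 0.572 and 0.405), so these numbers pair the samples. In the other comparisons at least 1 of the 3 correlations was under 0.1.

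The receptor genes and all lists were chosen with earlier results of these data known. From the lists, at most 4 called genes a direction with the largest log2 fold change are named per comparison, and the 5 genes most like the mean profile. Fcer1g in P2+ and P2- was named outside this rule, after its values were seen. Sept5 was read by its identifier, since its symbol is a date in the table.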

Additional observations from a re-analysis of the deposited data

How the results depend on the processing

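Of the log2 fold changes recomputed under the alternatives, 484 kept their direction and their side of the threshold, 29 fell short of it, 10 passed it and 2, both of Clec1b in P2+ and WT, changed sign without a call. No called difference changed direction. With a call also requiring at least 2-fold, the number of receptor genes called went from 5 to 1 in P2+ and WT, from 7 to 4 in P2- and WT, from 4 to 1 in KO and WT, and from 6 to 3 both in KO and P2- and in KO and P2+. With 1 library left out at a time, it was 6 to 7 in P2+ and P2-, 4 to 6 in P2+ and WT, 5 to 6 in P2- and WT, 4 to 4 in KO and WT, 2 to 6 in KO and P2-, and 6 to 6 in KO and P2+. The low end in KO and P2- came from leaving out KO replicate 1 (2 genes), 2 (3) or 3 (3), and the cause was not tested. Without both replicates 2 of P2+ and P2-, 6 genes were called, Cd36 being lost. The replicate block left the calls in P2+ and P2- at 7 genes (6 higher, 1 lower). In comparisons where the number is not shown to pair libraries it gave 6 genes against WT for each fraction and 5 for KO and P2-, and it changed no other call on a receptor gene. Gp6, Clec1b and Cd36, with at most 28 counts in a library, are limited by depth.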
